A study of Mus musculus with 4 samples.

Results

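The metabotropic glutamate receptors and the Homer scaffolds that tether some of them at the postsynaptic density were examined in the ischemic mouse hippocampus. The members were 9 genes given by symbol, the 6 receptors Grm2, Grm3, Grm4, Grm5, Grm7 and Grm8 and the 3 scaffolds Homer1, Homer2 and Homer3, out of 22609 gene symbols with read counts, and all 9 were among the 14527 genes with enough counts to be tested. Expression was measured by RNA-Seq of the hippocampus in 4 libraries, 2 of FLOX+GCI and 2 of FBN-ARO-KO+GCI. GCI is global cerebral ischemia, here 20 min of occlusion of both common carotid arteries followed by 24 h of reperfusion, and every mouse of both groups was a female of 3 to 5 months that had been ovariectomized 1 week before surgery. FBN-ARO-KO mice lack aromatase (Cyp19a1, the enzyme that makes estradiol from androgens) in forebrain neurons, through Cre driven by the CaMKIIα promoter in excitatory neurons, so other cells of the hippocampus keep the gene. FLOX mice are the genotype control, and no sham-operated or intact mice were part of these libraries. The sources used here do not state whether the 2 libraries of a group came from separate mice or pools, so the p-values measure the spread between these libraries, which may be technical.

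Glutamate acts on ion channels and on these G protein-coupled receptors, which fall into groups by sequence and signaling. The group I receptors, to which Grm5 belongs, couple to Gq and phospholipase C and lie mostly at the edge of the postsynaptic density. Group II (Grm2 and Grm3) and group III (Grm4, Grm6, Grm7 and Grm8) couple to Gi/o, inhibit adenylyl cyclase and are found largely on presynaptic terminals and, for Grm3, on astrocytes as well. Homer proteins bind a proline-rich motif in the tails of group I receptors and in the inositol trisphosphate receptor and Shank through an N-terminal EVH1 domain, and the long forms form multimers through a C-terminal coiled coil. Homer1a, a short form of Homer1 without the coiled coil, is induced by neuronal activity and uncouples these links. The counts are summed per gene symbol, so Homer1a and the long forms of Homer1 were not separated.

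The libraries held 24774433 and 24333396 counted reads in FLOX+GCI against 33076795 and 30114003 in FBN-ARO-KO+GCI, where 3 counts are worth 0.0907 to 0.123 CPM (counts-per-million of the library). Reads of Cyp19a1 numbered 4 and 1 for FLOX+GCI against 2 and 2 for FBN-ARO-KO+GCI, which cannot check the genotype labels. Every marker of the 9 hippocampal cell types looked up passed the filter on low counts. The summed CPM of neuron markers was 9292 to 9545 in FLOX+GCI and 9833 to 10458 in FBN-ARO-KO+GCI, and that of astrocyte markers was 4151 to 4413 and 4518 to 5173. The markers did not all go 1 way. Of 4 neuron markers, 2 were higher without overlap of the groups (Snap25 and Camk2a) and 1 lower (Rbfox3). Of 6 astrocyte markers, 1 was higher (Slc1a2) and 1 lower (Aldh1l1), where 25.9% and 25.8% of all genes were. In tissue libraries, fewer cells of a type and less RNA per cell cannot be told apart.

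The promoters of the 3 Homer genes are shown because these paralogs differed in direction between the genotypes. RefSeq gives a second start for Homer1 and for Homer2, whose windows have a GC content of 46.8% and 52%, hold none of the motifs searched and are not shown. Each sequence is the 250 bases before the first RefSeq start of the table, on GRCm38.p6, in the direction of transcription, with motif letters in capitals. Homer1 lies at chr13:93303507-93303756 on the plus strand, Homer2 at chr7:81706926-81707175 on the minus strand and Homer3 at chr8:70282749-70282998 on the plus strand.
Homer1: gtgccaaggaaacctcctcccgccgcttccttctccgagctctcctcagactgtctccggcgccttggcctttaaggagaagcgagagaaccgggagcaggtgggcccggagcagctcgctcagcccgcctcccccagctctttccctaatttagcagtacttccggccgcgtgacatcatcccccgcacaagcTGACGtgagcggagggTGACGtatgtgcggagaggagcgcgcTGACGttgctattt
Homer2: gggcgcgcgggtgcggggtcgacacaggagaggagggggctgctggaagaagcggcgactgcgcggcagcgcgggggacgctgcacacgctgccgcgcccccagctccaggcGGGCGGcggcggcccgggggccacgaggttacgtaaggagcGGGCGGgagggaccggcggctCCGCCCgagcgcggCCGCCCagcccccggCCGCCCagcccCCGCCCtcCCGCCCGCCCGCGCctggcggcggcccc
Homer3: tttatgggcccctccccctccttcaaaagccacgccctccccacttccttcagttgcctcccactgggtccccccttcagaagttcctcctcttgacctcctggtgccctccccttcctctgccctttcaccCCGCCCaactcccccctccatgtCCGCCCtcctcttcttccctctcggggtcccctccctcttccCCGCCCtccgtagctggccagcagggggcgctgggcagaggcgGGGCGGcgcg
The capitals in Homer1 mark the core of the cAMP response element, TGACG, which starts 56, 40 and 14 bases before the RefSeq start. This core was found at least once in 17.77% of the 32851 promoter windows of the table, and 3 or more times in 0.688%. It is contained in the full cAMP response element TGACGTCA, which occurred in 1.546% of windows and in none of the 3 shown here. The capitals in Homer2 mark 8 GC boxes, letters GGGCGG on either strand, which may overlap each other, and 1 site for the EGR factors, letters GCGNGGGCG, which overlaps GC boxes at its own position. Homer3 holds 4 GC boxes. A GC box was present in 32.74% of all windows and an EGR site in 4.697%. The AP-1 site TGANTCA (6.749% of windows), the CArG box (1.467%) and the estrogen response element (0.06392%), searched on both strands, were not found in these 3 windows. The windows differ in base composition, with a GC content of 62.4% for Homer1, 83.2% for Homer2 and 68% for Homer3. Of the 9 members, 7 matched the promoter table.

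In FBN-ARO-KO+GCI against FLOX+GCI, Homer1, Homer2 and the group I receptor Grm5 were higher in both libraries, while Homer3, Grm2 and Grm4 were lower in both and Grm3, Grm7 and Grm8 overlapped. By edgeR's quasi-likelihood test, 0 of the 9 members had a Benjamini-Hochberg adjusted p under 0.05, beside 0.0138% of all genes tested (2 of 14527). At an unadjusted p under 0.05, 3 members were higher (Homer1, Homer2 and Grm5), where 8.72% of all genes were, and 3 were lower (Grm2, Grm4 and Homer3), where 7.82% of all genes were. Without FLOX+GCI replicate 2 the unadjusted threshold was met by 3 members (Grm5, Homer1 and Homer2) and 12.9% of all genes tested, and without FBN-ARO-KO+GCI replicate 2 by 2 (Homer1 and Homer2) and 5.64% of all genes. DESeq2, whose independent filtering gave no adjusted p to Grm4 and Grm8, gave Homer1, Homer2 and Grm5 an adjusted p under 0.05, as it did 4.92% of the 5796 genes with one (285). With a correction for the GC content and length of transcripts, 0 members and 0.0138% of all genes passed. The groups did not overlap for 3 members that were higher and 3 that were lower, beside 25.9% and 25.8% of all genes. The median log2 fold change was -0.05 over the 9 members and -0.01 over all genes tested.

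**Figure D1:**
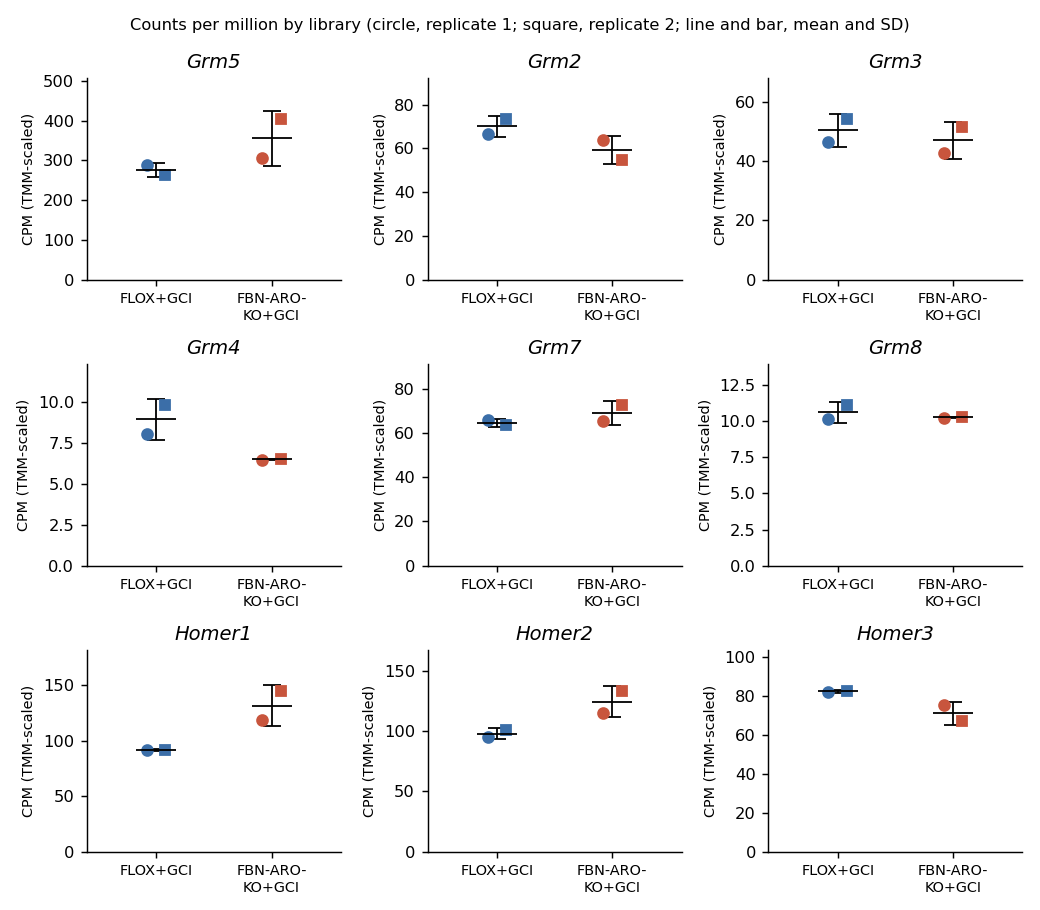
CPM, scaled by TMM, of each of the 9 genes in every library, with FLOX+GCI in blue and FBN-ARO-KO+GCI in red, circles for replicate 1, squares for replicate 2, and the group mean and SD as a line and bars. Both red points lie above both blue points for Grm5, Homer1 and Homer2 and below them for Grm2, Grm4 and Homer3, and every axis starts at 0.

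Homer1, which lies on mouse chromosome 13 from 94073712 to 94174917 on mm9, was at 91.1 and 91.9 CPM in the FLOX+GCI libraries and at 118 and 145 CPM in the FBN-ARO-KO+GCI libraries. The FLOX+GCI values were nearly equal, and both FBN-ARO-KO+GCI values lay above them, replicate 2 farther than replicate 1. The group means were 91.5 ± 0.521 and 132 ± 18.8 (SD, n = 2 in each), a 1.44-fold difference. The log2 fold change was 0.52 with a standard error (SE) of 0.10 and a 95% interval of 0.28 to 0.77 (adjusted p = 0.238). It was higher than that of 98.4% of all genes tested. Leaving out each library in turn gave 0.37 to 0.66. DESeq2 gave the same log2 fold change with an adjusted p of 0.0014. After correction for GC content and length, which fits the trend of each library over these properties and removes it, Homer1 was at 96.7 and 109 CPM in FLOX+GCI against 117 and 117 in FBN-ARO-KO+GCI. Those groups were still apart, with a log2 fold change of 0.19 (95% interval 0.02 to 0.35, adjusted p = 0.438).

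Homer2, a paralog with the same EVH1 and coiled-coil layout, lies on chromosome 7 from 88745367 to 88851811 and had 94.9 and 101 CPM in FLOX+GCI and 115 and 134 CPM in FBN-ARO-KO+GCI. Both FBN-ARO-KO+GCI libraries were above both FLOX+GCI libraries, in the same order as for Homer1. Its log2 fold change was 0.35 (SE 0.09, 95% interval 0.13 to 0.56, adjusted p = 0.238), a 1.27-fold difference. Corrected for GC content and length, it was at 101 and 105 against 117 and 120 CPM, and the log2 fold change was 0.20 (95% interval 0.06 to 0.33, adjusted p = 0.39). This interval lies within the corrected interval of Homer1.

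Homer3, the third paralog, lies on chromosome 8 from 72806726 to 72818260. It was at 81.9 and 82.7 CPM in FLOX+GCI and 75.2 and 66.9 CPM in FBN-ARO-KO+GCI, below the controls in both libraries. The log2 fold change was -0.21 (SE 0.08, 95% interval -0.41 to -0.01, adjusted p = 0.283), but -0.13 without FBN-ARO-KO+GCI replicate 2. With the correction, the values were 75.2 and 77.5 against 76.8 and 76.1 CPM, which overlap, and the log2 fold change was 0.0025 (95% interval -0.14 to 0.14). Of its 3440 exonic bases, 874 are shared with Ddx49, an RNA helicase gene on the opposite strand, and whether reads were counted by strand is not given in the sources used here, so reads in that stretch cannot be assigned to one of them with certainty. Ddx49 was at 25.9 and 26.5 CPM in FLOX+GCI and 23.5 and 21.0 CPM in FBN-ARO-KO+GCI.

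The mix of Homer transcripts within a library needs no scaling between libraries. Homer1 made up 34.0% and 33.3% of the summed Homer counts in FLOX+GCI (95% Wilson intervals 32.9% to 35.2% and 32.2% to 34.5%) and 38.3% and 41.9% in FBN-ARO-KO+GCI (37.3% to 39.2% and 41.0% to 42.9%). The Homer3 share was 30.6% and 30.0% in FLOX+GCI against 24.3% and 19.4% in FBN-ARO-KO+GCI. Homer2 took 35.4% and 36.7% in FLOX+GCI against 37.4% and 38.7% in FBN-ARO-KO+GCI. The Homer1 and Homer2 shares were therefore higher and the Homer3 share lower in both FBN-ARO-KO+GCI libraries. From CPM corrected for GC content and length the shifts were smaller, with a Homer1 share of 35.5% and 37.3% in FLOX+GCI against 37.6% and 37.4% in FBN-ARO-KO+GCI and a Homer3 share of 27.6% and 26.6% against 24.8% and 24.3%. The intervals of the uncorrected shares cover counting error only, with no bound more than 1.15 percentage points from its share.

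Grm5, the main group I receptor of the forebrain, lies on chromosome 7 from 94750952 to 95283417. It was at 289 and 264 CPM in FLOX+GCI and 306 and 405 CPM in FBN-ARO-KO+GCI. Replicate 1 of FBN-ARO-KO+GCI was only a little above the higher control, and replicate 2 was far above it. The log2 fold change was 0.36 (SE 0.13, 95% interval 0.06 to 0.67, adjusted p = 0.255), but 0.15 without FBN-ARO-KO+GCI replicate 2 and 0.55 without FBN-ARO-KO+GCI replicate 1. After the correction the values were 307 and 289 against 303 and 352 CPM, so that the groups overlapped, with a log2 fold change of 0.14 (95% interval -0.05 to 0.33). Grm5 supplied 59.5% and 55.5% of the counts of the 6 receptors in FLOX+GCI against 61.9% and 67.4% in FBN-ARO-KO+GCI, higher in both.

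The group II receptors lower cAMP and restrain glutamate release. Grm2, on chromosome 9 from 106546868 to 106558440, was at 66.5 and 73.5 CPM in FLOX+GCI and 63.7 and 54.7 CPM in FBN-ARO-KO+GCI. Both FBN-ARO-KO+GCI values were below both controls, and the log2 fold change was -0.24 (SE 0.10, adjusted p = 0.294), but -0.14 without FBN-ARO-KO+GCI replicate 2. With the correction they became 61.3 and 69.3 against 64.9 and 61.7 CPM, overlapping, with a log2 fold change of -0.05 (95% interval -0.23 to 0.14). Grm3, on chromosome 5 from 9485236 to 9725352, which astrocytes express as well as neurons, was at 46.4 and 54.2 CPM in FLOX+GCI and 42.6 and 51.4 CPM in FBN-ARO-KO+GCI. Its groups overlapped, and the interval of the log2 fold change of -0.10 ran from -0.38 to 0.18 (adjusted p = 0.692). The log2 fold change of Grm3 was 0.012 without FLOX+GCI replicate 2 and 0.028 without FBN-ARO-KO+GCI replicate 1, and the 2 libraries of each group differed by more than the group means did.

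Among the group III receptors, Grm4 on chromosome 17 from 27559332 to 27650286, known best from cerebellar granule cell terminals, had 202 and 243 counts in FLOX+GCI against 215 and 191 in FBN-ARO-KO+GCI. Scaled by library, these were 8.06 and 9.85 CPM against 6.48 and 6.52 CPM, lower in both FBN-ARO-KO+GCI libraries. The log2 fold change was -0.46 (SE 0.17, 95% interval -0.85 to -0.07, adjusted p = 0.255), and -0.26 after the correction (95% interval -0.66 to 0.15), with overlap. Grm7, a receptor of the active zone of glutamate terminals, lies on chromosome 6 from 110595575 to 111517224. Of its 5886 exonic bases 130 lie against an antisense transcript. It was at 65.7 and 63.3 CPM in FLOX+GCI and 65.2 and 72.7 CPM in FBN-ARO-KO+GCI, overlapping, with a log2 fold change of 0.10 (95% interval -0.11 to 0.30, adjusted p = 0.583). Without FBN-ARO-KO+GCI replicate 2 the log2 fold change of Grm7 was 0.017, and without replicate 1 of that group it was 0.17. Grm8, at 27225121 to 28085178 on the same chromosome, of whose 7850 exonic bases 96 are shared with Mir592, was at 10.1 and 11.1 CPM in FLOX+GCI and 10.2 and 10.2 CPM in FBN-ARO-KO+GCI. The log2 fold change of Grm8 was -0.05 (95% interval -0.37 to 0.26, adjusted p = 0.868), with groups that overlapped as deposited and stood apart, lower in FBN-ARO-KO+GCI, after the correction. Without FLOX+GCI replicate 2 it was 0.016. The fourth receptor of this group, Grm6, which serves retinal ON bipolar cells, had 0 counts in all 4 libraries, which allows up to 3 counts in each.

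**Figure D2:**
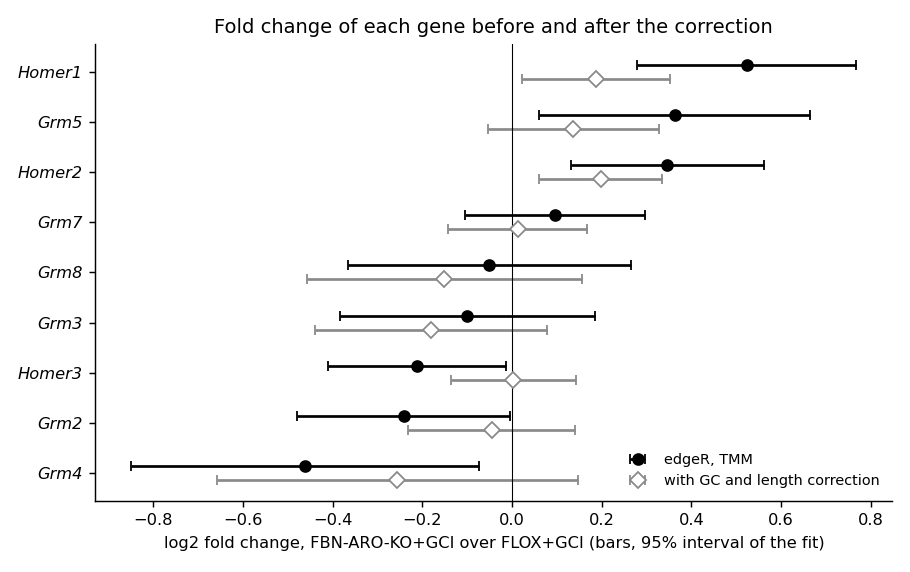
Log2 fold change of FBN-ARO-KO+GCI over FLOX+GCI for each of the 9 genes, from edgeR with TMM (black circles) and after correcting GC content and length (open diamonds), with 95% intervals of the fit as bars. The intervals of Homer1 and Homer2 stay above 0 in both fits, while those of Grm5, Homer3, Grm2 and Grm4 include 0 after the correction.

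Differences between the genotypes followed the base composition of the transcripts. The longest transcript has a GC content of 36.9% for Homer1, 41.9% for Grm5 and 44.8% for Homer2, the 3 members that were higher. It is 59.9% for Grm2, 60.2% for Homer3 and 61.4% for Grm4, the 3 that were lower, against a median of 50.6% over all genes with a value. Grm8, Grm3 and Grm7, whose groups overlapped, have values between these, 45.9%, 46.7% and 47.2%. Spearman's rho between GC content and log2 fold change was -0.93 over the 9 members and -0.55 over 13897 genes. These are descriptions across genes that share the same 4 libraries, and genes are not independent replicates. The trend was also present within a genotype, with a rho of -0.48 for FBN-ARO-KO+GCI replicate 2 against replicate 1 and of 0.10 for the same difference in FLOX+GCI. Its part in the differences between genotypes was not tested. With it removed, 2 members (Homer1 and Homer2) had an unadjusted p under 0.05, beside 10.2% of all genes. The groups then stood apart for 3 members (Homer1, Homer2 and Grm8), beside 42.9% of all genes. The log2 fold changes of the 9 members then ran from -0.26 to 0.20.

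**Figure D3:**
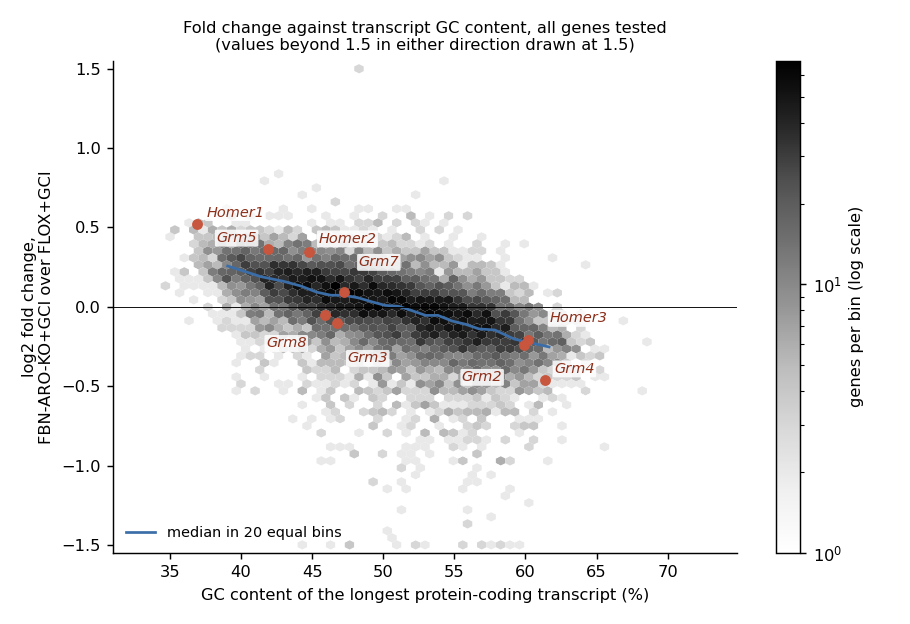
Log2 fold change of FBN-ARO-KO+GCI over FLOX+GCI against the GC content of the longest protein-coding transcript, for all genes tested (grey bins, shaded by the number of genes on a log scale) and the 9 members (red points), with the running median in blue. The median falls from left to right, and Homer1 at 36.9% GC and Grm4 at 61.4% GC stand at its ends.

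Whether Homer1 moved apart from a receptor or a paralog was asked with the log2 ratio of their counts within each library, which needs no scaling between libraries. All 8 ratios were higher in both FBN-ARO-KO+GCI libraries than in both FLOX+GCI libraries. They share Homer1, whose log2 fold change was higher than that of 98.4% of all genes tested, so they are not 8 separate observations. The question started from the rise of Homer1 in these same libraries, so a higher ratio to most genes was largely set in advance. The same ratio to all other genes was not computed, so the counts of ratios have no share of all genes beside them. The difference in mean log2 ratio was 0.97 against Grm4, 0.76 against Grm2, 0.73 against Homer3, 0.62 against Grm3, 0.57 against Grm8 and 0.42 against Grm7. It was smallest against Homer2 and Grm5, at 0.17 for each. The exact two-sided permutation p was 0.333 for each of the 8, which is the smallest that 2 libraries against 2 allow, so none can pass a threshold of 0.05. With this correction applied to both genes, the ratio stayed higher in both FBN-ARO-KO+GCI libraries for 6 of the 8, with differences from 0.18 against Grm7 to 0.44 against Grm4. The groups overlapped for Grm5 (difference 0.06, exact p = 0.667) and for Homer2 (difference -0.0083, exact p = 1).

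**Figure D4:**
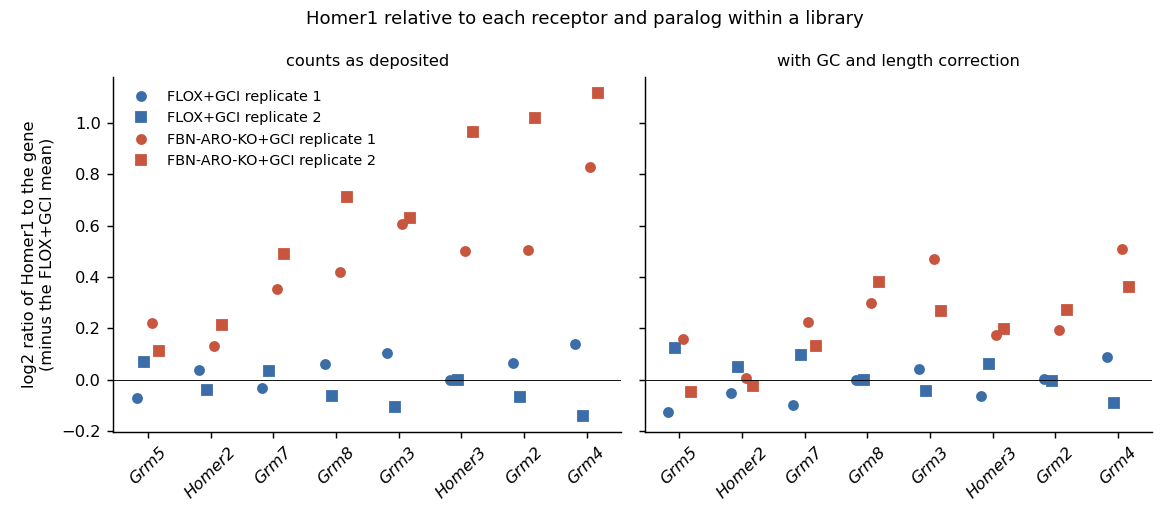
Log2 ratio of Homer1 to each of the other 8 genes within a library, minus the FLOX+GCI mean, from the counts as deposited (left) and after correcting GC content and length (right), with FLOX+GCI in blue and FBN-ARO-KO+GCI in red. On the left every red point lies above both blue points of its gene, and on the right the colors mix for Grm5 and Homer2.

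Levels can be compared between genes only per length, here as CPM per kilobase of the longest transcript, over all 4 libraries. Grm5 was the highest at 45.8 ± 8.96 (SD, n = 4), followed by Homer3 at 29.4 ± 2.81, Homer1 at 19.5 ± 4.47 and Grm2 at 19.5 ± 2.35. Grm7 at 15.9 ± 0.97, Grm3 at 13.8 ± 1.46 and Homer2 at 10.1 ± 1.57 came next, and Grm8 at 2.70 ± 0.12 and Grm4 at 1.70 ± 0.35 were far below. By this length the order of Homer1 and Grm2 turned between the genotypes. Grm2 was above Homer1 in FLOX+GCI (21.1 ± 1.5 and 16.0 ± 0.0912, SD, n = 2), and Homer1 above Grm2 in FBN-ARO-KO+GCI (23.0 ± 3.30 and 17.8 ± 1.92). The ranges of neighbors in this order overlapped from Homer1 down to Homer2, and did not overlap between Grm5 and Homer3, Homer3 and Homer1, Homer2 and Grm8, or Grm8 and Grm4. Per kilobase of all exons of the gene in place of the longest transcript, Homer1 was at 9.83, next to Homer2 at 9.98. Grm4 at 1.45 was above Grm8 at 1.33. By that length Grm2 was above Homer1 in both genotypes, at 21.1 against 8.07 in FLOX+GCI and 17.8 against 11.6 in FBN-ARO-KO+GCI.

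**Figure D5:**
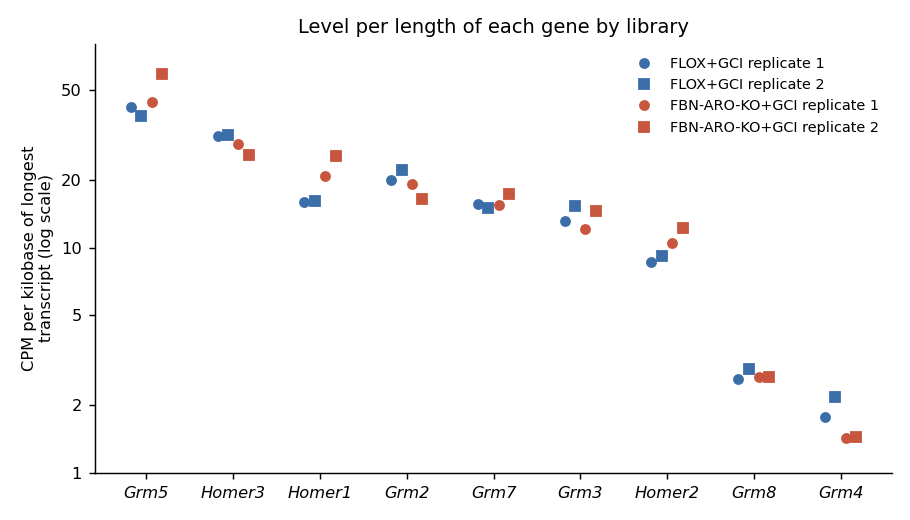
CPM per kilobase of the longest transcript of each of the 9 genes in every library, on a log axis, ordered by the mean, with FLOX+GCI in blue, FBN-ARO-KO+GCI in red, circles for replicate 1 and squares for replicate 2. Grm5 is at 38.3 or above in every library, and Grm8 and Grm4 stand apart below the other genes.

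The pathway around the receptors was read from gene lists, of which 0 genes had an adjusted p under 0.05. The list for Gq and phospholipase C signaling, the output of group I receptors, held 13 genes tested. At an unadjusted p under 0.05, 4 were higher and 0 lower, where 8.72% and 7.82% of all genes were. The median log2 fold change was -0.02. Itpr1, the inositol trisphosphate receptor that Homer links to group I receptors, was at 505 and 469 CPM in FLOX+GCI and 588 and 624 CPM in FBN-ARO-KO+GCI, with no overlap. Its log2 fold change was 0.31 (SE 0.07, adjusted p = 0.238), and 0.25 after the correction (95% interval 0.09 to 0.40). Gnaq, the α subunit of Gq, and Prkcb, a protein kinase C, had log2 fold changes of 0.24 (SE 0.08, adjusted p = 0.248) and 0.20 (SE 0.07, adjusted p = 0.255). After the correction these were 0.13 (95% interval -0.02 to 0.27) and 0.20 (0.05 to 0.35). After the correction 2 of the 13 kept an unadjusted p under 0.05, beside 10.2% of all genes.

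The Gi/o and adenylyl cyclase list, the output of group II and group III receptors, had a median of 0.03. Of its 12 genes, 2 were higher at that threshold and 0 lower, where 8.72% and 7.82% of all genes were. These were Gnai1, an inhibitory G protein α subunit, with a log2 fold change of 0.46 (SE 0.14, adjusted p = 0.245), and Adcy1, a calcium-stimulated adenylyl cyclase, with 0.18 (SE 0.06, adjusted p = 0.255). Adcy8, a related cyclase, had the next smallest p-value, with a log2 fold change of -0.27 (SE 0.12, adjusted p = 0.309).

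Among 18 Homer partners and postsynaptic scaffolds, 2 were higher (Frmpd4 and Trpc1) and 1 lower (Dlgap3), where 8.72% and 7.82% of all genes were. The median was 0.01. Dlgap3, which joins Shank to PSD-95, was at 259 and 271 CPM in FLOX+GCI and 214 and 201 CPM in FBN-ARO-KO+GCI, with a log2 fold change of -0.35 (SE 0.07, adjusted p = 0.238). Its transcript has a GC content of 63.9%, and the corrected log2 fold change was -0.09 (95% interval -0.26 to 0.08). Frmpd4, a scaffold that binds Homer, had a log2 fold change of 0.25 (SE 0.08, adjusted p = 0.248), and Trpc1, a cation channel, also 0.25 (SE 0.10, adjusted p = 0.274). After the correction these were 0.09 (95% interval -0.04 to 0.21) and 0.23 (0.03 to 0.43). Of 15 receptor regulators and binding proteins, 0 met the unadjusted threshold, where 8.72% of all genes were higher and 7.82% lower. Their median was -0.06. The smallest p-value belonged to Pick1, which binds Grm7 (log2 fold change -0.21, adjusted p = 0.348). Next were Adrbk2, a receptor kinase (0.13, adjusted p = 0.389), and Grasp, a scaffold of group I receptors (-0.21, adjusted p = 0.42).

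The list for translation and long-term depression downstream of group I receptors held 11 genes tested. Of these, 1 was higher and 2 were lower, where 8.72% and 7.82% of all genes were. Fmr1, the fragile X protein that represses translation of synaptic mRNAs, had a log2 fold change of 0.48 (SE 0.15, adjusted p = 0.248) and 0.22 after the correction (95% interval 0.00 to 0.43). The lower genes were Ptpn5, a phosphatase that acts on glutamate receptors, with -0.39 (SE 0.12, adjusted p = 0.245), and Eef2k, the kinase of elongation factor 2, with -0.26 (SE 0.09, adjusted p = 0.255). After the correction Ptpn5 was at -0.22 (95% interval -0.49 to 0.05). Eef2k had no GC value, so the correction did not apply to it. Of 6 immediate early genes, which neuronal activity induces as it does Homer1a, 3 were lower and 0 higher, where 7.82% and 8.72% of all genes were. The median was -0.49. Npas4 was at 17.8 and 10.6 CPM in FLOX+GCI and 6.88 and 7.10 CPM in FBN-ARO-KO+GCI, with a log2 fold change of -1.02 (SE 0.24, adjusted p = 0.238). Junb (log2 fold change -0.76, adjusted p = 0.238) and Fos (-0.71, adjusted p = 0.238) were lower as well, and Arc (-0.28), Nr4a1 (-0.20) and Egr1 (-0.02) did not meet the threshold. After the correction the log2 fold changes of Npas4, Junb and Fos were -0.89, -0.47 and -0.67. Those of Arc, Nr4a1 and Egr1 were -0.10, -0.05 and 0.04. Homer1a was not counted apart from the long forms, and a relation of these genes to Homer1 was not tested.

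Markers of the cell types that could contribute to these values were read beside them. The summed CPM of dentate granule cell markers was 292 to 320 in FLOX+GCI and 368 to 375 in FBN-ARO-KO+GCI, with 3 of 4 markers higher without overlap (Prox1, Dsp and Calb1) and 1 lower (C1ql2), where 25.9% and 25.8% of all genes were. With the GC and length trend removed, Prox1 and Dsp still stood apart (log2 fold changes 0.18 and 0.39), beside 42.9% of all genes. Calb1 went from 0.53 to 0.22 and C1ql2 from -0.45 to -0.14, both with overlap. Of the neuron markers named above, Snap25 (0.08) and Camk2a (0.06) stayed apart, and Rbfox3 went from -0.17 to 0.0017 with overlap. Of the astrocyte markers, Aldh1l1 (-0.24) stayed apart and Slc1a2 (0.07) overlapped. Markers of CA1 and CA3 pyramidal cells summed to 849 to 856 CPM in FLOX+GCI and 818 to 837 in FBN-ARO-KO+GCI, and those of interneurons to 936 to 975 and 894 to 897. Microglial markers summed to 285 to 291 and 276 to 305 CPM, and those of the oligodendrocyte lineage to 3546 to 4022 and 4030 to 4159 CPM. Endothelial markers summed to 96.0 to 139 and 80.9 to 111 CPM, and choroid plexus markers to 49.6 to 61.1 and 42.3 to 49.1 CPM. The part of all these cell types in the values of the receptors and scaffolds was not tested.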

How the data were processed

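Hippocampal RNA of 4 libraries was sequenced as single-end 50 nt reads. The authors aligned the reads to mm9 with TopHat2 2.0.8b and deposited HTSeq counts per gene symbol without normalization. The HTSeq version, strand setting and annotation are not given in the sources used here. The 5 HTSeq counters were left out.

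Genotypes were compared over 14527 genes with edgeR 4.0.16 in R 4.3.3, by its quasi-likelihood test (TMM, filterByExpr with a minimum count of 10, Benjamini-Hochberg threshold 0.05). The SE was taken as the size of the log2 fold change over the root of F. CPM were scaled by TMM. Gene positions on mm9, transcript lengths and GC content were read from a GENCODE annotation of that build, and promoters from RefSeq. The correction for GC content and length used natural splines (5 degrees of freedom) fitted per library and entered as an offset. Scripts were tested on simulated data. Alternatives were DESeq2 1.42.0, other scalings, filters and tests, a replicate block, and leaving out each library.

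The members and gene lists were chosen with earlier results of these data known. In each list the 3 genes with the smallest p were named, and the markers and remaining immediate early genes were named after their values were seen. Map1b was not analysed here.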

Additional observations from a re-analysis of the deposited data

How the results depend on the processing

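With 2 libraries a group, the direction of Homer1, Homer2, Grm2, Grm4, Grm5 and Grm7 held under all 13 alternatives, and that of Homer3 under all but those with the correction. Of the 9 members, 0 had an adjusted p under 0.05, against 3 with DESeq2 (Grm5, Homer1 and Homer2), 1 with the likelihood ratio test and 1 with the replicate block (Homer1 in both). An unadjusted p under 0.05 was met by 6 members and 2403 of the 14527 genes, and with DESeq2 by 3 members and 1836 genes. With the GC and length correction it was met by 2 members and 1476 genes, and with the block and this correction by 2 members and 1669 genes. Groups stood apart for 6 members, beside 25.9% of all genes that were higher and 25.8% that were lower. After the correction they stood apart for 3 members, beside 42.9% of all genes. Homer1 kept a log2 fold change of 0.52 with DESeq2 (adjusted p = 0.0014), the likelihood ratio test (0.0030) and the replicate block (0.0200), and the adjusted p ranged from 0.0014 to 0.815 over alternatives. Leaving out 1 library gave 0.37 to 0.66 for Homer1, -0.24 to 0.028 for Grm3 (0.028 without FBN-ARO-KO+GCI replicate 1) and -0.12 to 0.016 for Grm8 (0.016 without FLOX+GCI replicate 2). Homer3 was at 0.0025 with the correction and 0.0027 with the block and correction, and the Homer1 to Homer2 ratio at -0.0083. Over all genes, 2 had an adjusted p under 0.05, against 285 with DESeq2 (202 higher and 83 lower), 294 with the likelihood ratio test (139 and 155), 5 with every gene of at least 1 count, 184 with the block (42 and 142), 37 with the block and correction, and 0 to 193 without 1 library (193 and 127 without FLOX+GCI replicates 1 and 2, 0 without either FBN-ARO-KO+GCI library). The lone library left in a group was assumed to vary like the other group. The replicate numbers are not known to pair the libraries, whose same-numbered deviations correlated at 0.129. Per kilobase of all exons, levels were 11.3 for Grm7, 1.33 for Grm8, 9.83 for Homer1 and 22.3 for Homer3. With the correction, 2 genes of the Gq list and 1 of the receptor regulators met an unadjusted p under 0.05, beside 10.2% of all genes, against 4 and 0 without it. The cause of these differences was not tested.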
